A study of Homo sapiens with 4 samples.

Results

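The proteasome is the large protease that degrades ubiquitin-tagged proteins, and its genes carry symbols that start with PSM. Genes were taken as members when their symbol began with PSMA to PSMG followed by a digit in both deposited expression tables, with hyphenated symbols, PSMB8 and PSMB9 left out. This gave 47 of the 19732 symbols in the A549 table. Of these, 46 are proteasome genes, and PSMC3IP, a recombination factor named for an interaction with PSMC3, fits the pattern by name only. PSMA8, a testis form of a core subunit, and PSMB11, a thymus form of another core subunit, were listed at 0 in both libraries. The other 44 proteasome genes were all measured, meaning 1 FPKM or more in either library. FPKM is a transcript level corrected for the length of the transcript and for the number of fragments mapped in its library, so levels of different genes can be set side by side.

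The study asked what loss of RBM4, a protein that binds RNA and acts in splicing and translation, does to the transcripts of lung cancer lines. The groups used here were A549 cells with knockdown of RBM4 and A549 control cells, with 1 library each. The knockdown titles end in sh, and the labels describe neither the construct nor the time after knockdown. A knockdown and a control sample of H1299, another lung cancer line, are not analysed here, because their table's columns carry names that match no label. In the A549 table, the plain name A549 was read as control and the name with an added suffix as knockdown, a suffix the labels do not hold, so every direction below rests on that reading.

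RBM4 itself had 30.6 FPKM in the knockdown library and 59.4 FPKM in the control library, or 51.5% of the control. Mitochondrially encoded genes made up 21.7% of the FPKM total in the knockdown and 18.6% in the control library, and that total was 622366 in the knockdown and 671529 in the control library. The simple-epithelium keratin KRT18 had 912 FPKM in the knockdown and 1853 FPKM in the control library, while the epithelial marker EPCAM was low, at 2.76 and 2.74 FPKM in knockdown and control. The immune marker PTPRC, the fibroblast marker COL1A2 and the endothelial marker PECAM1 were listed at 0 in the control and stayed at or below 0.125 FPKM in the knockdown library. The sequencing depth is unknown, so no counting interval is given. With 1 library per group no gene was tested, and each difference is the reading of a single pair of libraries. In bulk RNA, fewer cells of a type and less RNA per cell cannot be told apart.

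The proteasome is built from a barrel-shaped core, whose outer rings of alpha subunits guard the entrance and whose inner rings of beta subunits hold the protease sites, and a regulatory particle that caps it. The regulatory particle has a base, with a ring of ATPases that unfold substrates, and a lid, which removes ubiquitin chains. Other activators can cap the core in place of the regulatory particle, and dedicated chaperones that leave the finished particle guide assembly. Most cells make all subunits at once, and the transcription factor NFE2L1 raises their genes together when proteasome activity is short.

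Most proteasome genes were modestly lower in the knockdown library. Differences are log2 ratios of the knockdown level to the control level, with 1 FPKM added to each, so that 0 is equality. Of the 44 measured genes, 39 (88.6%) had a difference below 0, against 53.4% of all 12230 genes at 1 FPKM or more. Their median difference was -0.29, against -0.037 over all genes. The genes lay close together, with a robust SD of 0.20 against 0.45 over all genes. A total of 40 of the 44 (90.9%) were within 1.5-fold, against 77.4% of all genes.

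Single genes past 1.5-fold were few. PSMC3, PSMD11 and PSMG1 were lower by at least 1.5-fold, which is 3 of 44 (6.82%) against 9.83% of all genes. PSMD2 alone was higher by at least 1.5-fold, 1 of 44 (2.27%) against 12.7% of all genes. No proteasome gene passed 2-fold as reported, which 2.25% of all genes did downward and 4.96% upward. The member count past 1.5-fold is thus no higher than the background in either direction. With 0.1 FPKM added in place of 1, PSMC6 was also past 1.5-fold, which made 4 lower, against 12.2% of all genes. Scaling bears on it: with both libraries rescaled to the same total, 36 genes lay below 0, against 44.0% of all genes. Past 1.5-fold, 1 was then lower (PSMD11), against 6.72% of all genes, and 1 higher (PSMD2), against 15.7%. With mitochondrial genes left out, 32 lay below 0, against 39.7% of all genes, with 1 lower against 5.64% and 1 higher against 17.4%. In both scalings PSMD2 was past 2-fold, at 1.05 and 1.10. Those scalings moved the median of all genes to 0.064 and 0.11. The proteasome median minus the median of all genes was -0.26 as reported and lay between -0.29 and -0.16 under the 10 alternatives tried. The alternative without genes whose exons overlap another gene left out proteasome genes only.

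Abundant genes in general also leaned downward. Among the 4873 genes at 20 FPKM or more in either library, the median difference was -0.13 and 62.0% lay below 0. The proteasome genes had median levels of 73.4 FPKM in the knockdown and 89.7 FPKM in the control library. Across all genes the difference correlated with the mean log2 level at r = -0.21 (12230 genes), and across the 44 proteasome genes at r = -0.03. These points share the same pair of libraries, and the correlations are given as a description.

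Together the 46 proteasome genes held 3824 FPKM in the knockdown and 4606 FPKM in the control library, 83.0% of the control. That was 0.614% of all FPKM in the knockdown and 0.686% in the control library. The order of the genes by level was much the same in both libraries (Spearman rho 0.95 over 44 genes, a description). PSMA4 was the most abundant and PSMB10 the least abundant measured gene in each library. The plot of levels by gene shows both libraries.

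**Figure D1:**
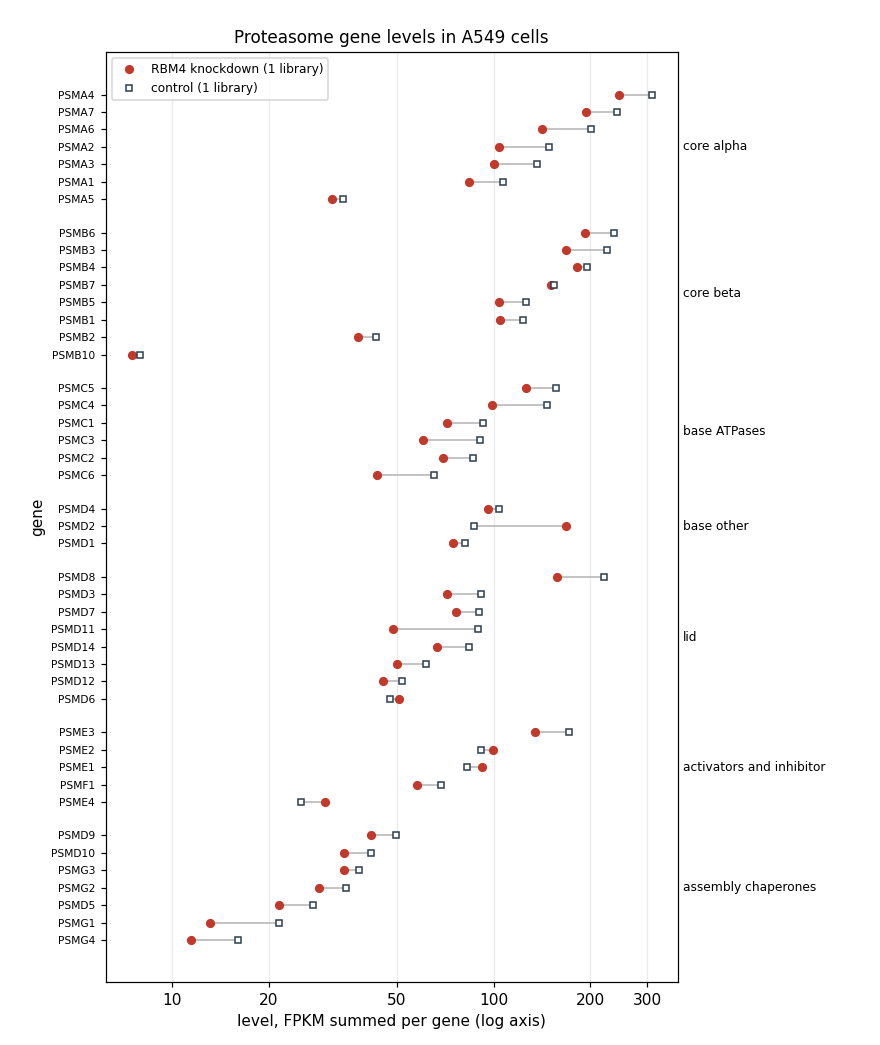
Level of each measured proteasome gene in FPKM (log axis) in the RBM4 knockdown library (red circles) and the control library (open squares) of A549 cells, grouped by place in the particle. The knockdown point lies left of the control point for 39 of 44 genes, and PSMD2 is the widest exception, at 168 FPKM in the knockdown and 86.9 FPKM in the control library.

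All 7 measured alpha subunits of the core lay below 0, except that PSMA5 moved above 0 with mitochondrial genes left out (0.045) or with length and GC trends removed (0.088). Their median difference was -0.34 and their range -0.51 to -0.11. PSMA2 had 104 FPKM in the knockdown and 149 FPKM in the control library (-0.51). PSMA6 was similar, with 141 FPKM in the knockdown and 201 FPKM in the control library (-0.51). Both share exons with another annotated gene on the same strand, so the split of reads is uncertain. PSMA3, at 101 FPKM in the knockdown and 137 FPKM in the control library (-0.44), has no exon overlap.

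Alpha subunits sit in the particle in equal numbers, but their transcripts were unequal. PSMA4 was highest, at 245 FPKM in the knockdown and 310.0 FPKM in the control library (-0.34). PSMA5 was lowest, at 31.4 FPKM in the knockdown and 34.1 FPKM in the control library (-0.11), and it differed least between libraries. The highest alpha level was 7.82 times the lowest in the knockdown and 9.10 times in the control library. PSMA7 (-0.32) and PSMA1 (-0.34) lay near the middle of the ring's differences, and PSMA1 also shares exons with another gene on the same strand.

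The 8 measured beta subunits were all below 0 as deposited, with a median of -0.21, but PSMB4, PSMB7 and PSMB10 moved above 0 once the libraries were rescaled to the same total. The protease sites lie in PSMB6 (caspase-like), PSMB7 (trypsin-like) and PSMB5 (chymotrypsin-like, the main target of proteasome inhibitor drugs). PSMB5 had 104 FPKM in the knockdown and 126 FPKM in the control library (-0.27). PSMB6 had 193 FPKM in the knockdown and 237 FPKM in the control library (-0.30). PSMB7 had 151 FPKM in the knockdown and 154 FPKM in the control library (-0.023), so it was nearly level while the other sites were at 82.7% and 81.3% of the control.

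Among the subunits without a protease site, PSMB3 had the lowest difference of the beta group, at 168 FPKM in the knockdown and 226 FPKM in the control library (-0.42). PSMB4 had 182 FPKM in the knockdown and 195 FPKM in the control library (-0.097). PSMB1 (-0.24) and PSMB2 (-0.19) lay between them, and PSMB2 was the least abundant constitutive beta gene, at 37.8 FPKM in the knockdown and 43.2 FPKM in the control library. The ratio of PSMB7 to PSMB3, which no scaling of a library can alter, was 0.899 in the knockdown and 0.681 in the control library.

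PSMB10 is the interferon-inducible subunit that takes the place of PSMB7 in the immunoproteasome. It had 7.50 FPKM in the knockdown and 7.97 FPKM in the control library (-0.077), the lowest level of any measured proteasome gene. Its ratio to PSMB7 was 0.0496 in the knockdown and 0.0518 in the control library. As listed, the constitutive subunit was the far more abundant transcript of this pair in both libraries. PSMB10 shares exons with another annotated gene on the same strand, so its level rests on an uncertain split of reads.

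The ATPases of the base had the lowest median of any group, -0.46, and all 6 lay below 0. PSMC3 had 60.2 FPKM in the knockdown and 91.0 FPKM in the control library (-0.59), just past 1.5-fold. PSMC6 had 43.6 FPKM in the knockdown and 65.5 FPKM in the control library (-0.58), which falls short of 1.5-fold only with 1 FPKM added and is past it with 0.1 FPKM added (-0.59). PSMC4 followed, at 98.7 FPKM in the knockdown and 146 FPKM in the control library (-0.56). These 3 genes were at 66.2%, 66.5% and 67.5% of the control and none has an exon overlap with another gene.

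The remaining ATPases differed by less. PSMC1 (-0.36), PSMC2 (-0.31) and PSMC5 (-0.30) were at 77.4%, 80.4% and 80.8% of the control. PSMC5 was the most abundant ATPase gene, at 126 FPKM in the knockdown and 156 FPKM in the control library. PSMC1 has 13 pseudogenes named after it in the annotation, more than any other member, so its reads could be shared. The ATPase ring uses its subunits in equal number, and their levels spanned 2.89-fold in the knockdown and 2.38-fold in the control library.

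PSMD2, the base scaffold subunit that binds ubiquitin-like shuttle proteins, had the highest difference of any member. PSMD2 (ENSG00000175166) is annotated on the plus strand of chromosome 3 from 184298709 to 184309054 (GENCODE 29, hg38). It had 168 FPKM in the knockdown and 86.9 FPKM in the control library, 193% of the control (0.94). A total of 94.3% of all genes had a lower difference, so it is high but not extreme among all genes. Its difference stayed between 0.82 and 1.10 under every alternative. PSMD1, the paralogous scaffold of the base, had 74.9 FPKM in the knockdown and 81.4 FPKM in the control library (-0.12). The ratio of PSMD2 to PSMD1 was 2.24 in the knockdown and 1.07 in the control library. PSMD4, a ubiquitin receptor, had 96.4 FPKM in the knockdown and 104 FPKM in the control library (-0.11). With mitochondrial genes left out, PSMD1 moved to 0.044 and PSMD4 to 0.050, just above 0.

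Both PSMD2 transcripts with a level in each library were higher in the knockdown library. The main transcript, ENST00000310118, had 108 FPKM in the knockdown and 60.5 FPKM in the control library. A shorter one, ENST00000439383, had 51.2 FPKM in the knockdown and 26.4 FPKM in the control library, and it held 30.5% of the gene's FPKM in the knockdown and 30.4% in the control library. Minor transcripts ENST00000417952 and ENST00000432855 had 4.34 and 4.39 FPKM in the knockdown library and were listed at 0 in the control. No exon of PSMD2 overlaps another annotated gene.

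The promoter of PSMD2 is shown because this gene alone departed upward past 1.5-fold. The 250 bases before the first of its RefSeq starts (GRCh38.p14, chr3:184298991-184299240, plus strand), which lie inside the gene as GENCODE 29 draws it, hold 3 copies of GGGCGG, the core of a GC box that SP-family factors bind, printed in capitals.
PSMD2 upstream: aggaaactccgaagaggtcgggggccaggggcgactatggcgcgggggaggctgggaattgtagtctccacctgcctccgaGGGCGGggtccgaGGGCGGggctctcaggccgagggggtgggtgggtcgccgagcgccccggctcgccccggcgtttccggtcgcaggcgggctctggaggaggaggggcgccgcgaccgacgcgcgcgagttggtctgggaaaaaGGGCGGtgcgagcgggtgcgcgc
GC-box cores on either strand occurred in the RefSeq promoter windows (250 bases before to 50 after the start) of 26 of the 38 members that have one (68.4%), against 48.3% of all 27305 genes with a window. The 38 members are all measured genes, whereas the 27305 include genes not measured here, so the shares come from unlike sets. The 26 had a median difference of -0.32 and the other 12 a median of -0.29.

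The lid had a median difference of -0.31 over its 8 genes, of which 7 lay below 0. PSMD11 had the lowest difference of all proteasome genes. It encodes a lid subunit whose yeast counterpart holds the lid against the core. PSMD11 (ENSG00000108671) lies on the plus strand of chromosome 17 from 32444261 to 32483318 in the same annotation. It had 48.8 FPKM in the knockdown and 89.3 FPKM in the control library, 54.6% of the control (-0.86), and 3.54% of all genes had a lower difference. Both main transcripts took part: ENST00000261712 had 27.9 FPKM in the knockdown and 49.8 FPKM in the control library, and ENST00000457654 had 19.7 FPKM in the knockdown and 38.7 FPKM in the control library. The locus AC005899.8 overlaps its exons on the other strand, and the strand setting of the counting is not given.

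PSMD8 was the most abundant lid gene, at 157 FPKM in the knockdown and 219.8 FPKM in the control library (-0.48). PSMD14, the enzyme that cuts ubiquitin chains off substrates, had 66.8 FPKM in the knockdown and 84.1 FPKM in the control library (-0.33). PSMD6 was the lid gene above 0, with 50.9 FPKM in the knockdown and 47.7 FPKM in the control library (0.092), and its exons are overlapped by antisense genes. PSMD3 (-0.35), PSMD13 (-0.29), PSMD7 (-0.24) and PSMD12 (-0.19) lay between. The ratio of PSMD11 to PSMD12 was 1.08 in the knockdown and 1.72 in the control library.

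**Figure D2:**
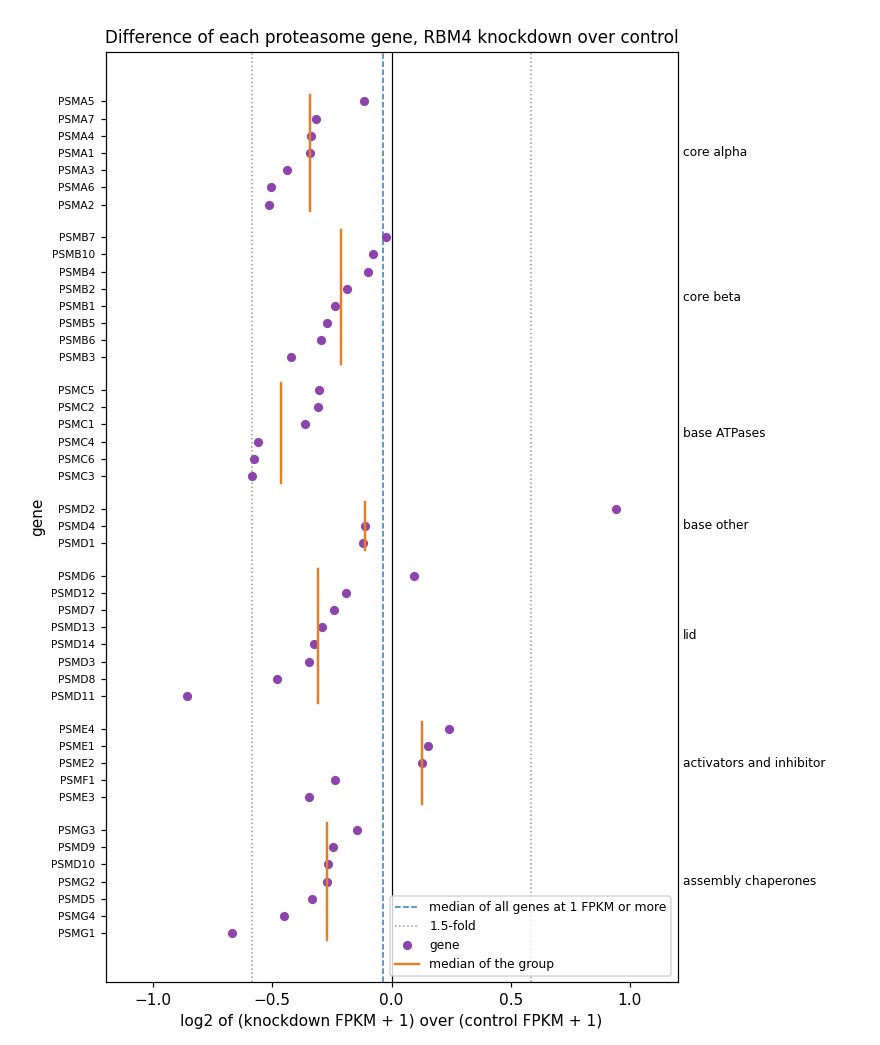
Log2 difference (knockdown FPKM plus 1 over control FPKM plus 1) of each measured proteasome gene, with the median of each group (orange), the median of all genes (dashed, -0.037) and 1.5-fold in either direction (dotted). The base ATPases have the lowest group median (-0.46), the activators and inhibitor the only one above 0 (0.13), and PSMD2 (0.94) and PSMD11 (-0.86) lie farthest out.

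Of the 4 activators other than the regulatory particle, PSME1, PSME2 and PSME4 lay slightly above 0 and PSME3 below. Of all genes, 66.5%, 64.4% and 72.0% had a lower difference than PSME1, PSME2 and PSME4. The group of 4 activators and the inhibitor PSMF1 had a median of 0.13, with 3 genes above 0 and 2 below (40.0%). Of all genes, 53.4% lay below 0, so a count over 5 genes is little apart from that share. None of the 5 passed 1.5-fold, and 77.4% of all genes were within it. Under the alternatives that could be computed the median lay between 0.13 and 0.29. It could not be computed without genes whose exons overlap another gene, since all 5 have such an overlap. Of the other groups, the core had a median of -0.30, the base -0.31, the lid -0.31 and the assembly chaperones -0.27.

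PSME1 and PSME2 encode the interferon-inducible activator that opens the core without ATP. They lie near each other on chromosome 14, PSME1 at 24136158 to 24138967 (plus strand) and PSME2 at 24143362 to 24147570 (minus strand). PSME1 had 92.0 FPKM in the knockdown and 82.5 FPKM in the control library (0.15). PSME2 had 99.8 FPKM in the knockdown and 91.4 FPKM in the control library (0.13). Their ratio, PSME1 over PSME2, was 0.921 in the knockdown and 0.903 in the control library, so their summed transcript levels kept close proportions. With the highest transcript per symbol the differences were less alike, at 0.16 for PSME1 and 0.40 for PSME2.

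PSME4, a large activator of the nucleus, had 29.8 FPKM in the knockdown and 25.1 FPKM in the control library (0.24). PSME3, a nuclear homomeric activator related to PSME1, went the other way, with 134 FPKM in the knockdown and 171 FPKM in the control library (-0.35). The ratio of PSME3 to PSME4 was 4.51 in the knockdown and 6.81 in the control library. PSMF1, which inhibits the core in vitro, had 57.9 FPKM in the knockdown and 68.4 FPKM in the control library (-0.24).

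The assembly chaperones had the lowest median level of the groups, at 28.6 FPKM in the knockdown and 34.7 FPKM in the control library. All 7 lay below 0, with a median of -0.27, except that PSMG3 moved to 0.016 with mitochondrial genes left out. PSMG1, which pairs with PSMG2 to build the alpha ring, had 13.1 FPKM in the knockdown and 21.5 FPKM in the control library, 61.1% of the control (-0.67). PSMG2 had 28.6 FPKM in the knockdown and 34.7 FPKM in the control library (-0.27). The ratio of PSMG1 to PSMG2 was 0.458 in the knockdown and 0.619 in the control library.

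PSMG4, which pairs with PSMG3, had 11.5 FPKM in the knockdown and 16.0 FPKM in the control library (-0.45). PSMG3 had 34.4 FPKM in the knockdown and 38.1 FPKM in the control library (-0.14). The base chaperones PSMD5 (-0.33), PSMD10 (-0.27) and PSMD9 (-0.25) were within a narrow range, and PSMD9 was the most abundant chaperone gene, at 41.7 FPKM in the knockdown and 49.7 FPKM in the control library.

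PSMC3IP, the member that is no proteasome gene, had the lowest difference of the 45 measured. It helps the recombinases that pair homologous DNA strands. PSMC3IP had 7.28 FPKM in the knockdown and 14.9 FPKM in the control library, 48.9% of the control (-0.94 on the scale with 1 FPKM added). With it, 40 of 45 measured members lay below 0 and 4 of 45 (8.89%) were lower by at least 1.5-fold, close to the 9.83% of all genes.

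The deposited table lists 203 transcripts for the 47 members. Of the 44 measured proteasome genes, 42 had the same leading transcript in both libraries (95.5%, against 93.0% of genes at 20 FPKM or more). In 20 the leading transcript held at least 90% of the gene in both, a measure not computed over all genes. Of the 122 proteasome transcripts at 1 FPKM or more in either library, 94 were lower and 28 higher in the knockdown library, while 53.2% of all 30157 transcripts at that level were lower. Assignment of FPKM between overlapping transcripts is an estimate with no error given here.

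PSMG3 had the widest shift. Its transcript ENST00000404674 held 58.7% of the gene in the knockdown and 71.5% in the control library, and ENST00000288607 held 38.3% in the knockdown and 26.5% in the control library. It was the only proteasome gene with a transcript that moved by 10 percentage points or more, 1 of 44 (2.27%), against 19.1% of genes at 20 FPKM or more. A transcript moved by at least 5 points in 11 of 44 genes (25.0%), against 45.9% of genes at that level. PSMG3 lies opposite the antisense gene PSMG3-AS1.

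PSMC5 and PSMF1 were the genes whose leading transcript differed. In PSMC5, ENST00000375812 led in the knockdown with 57.4 FPKM, close to its 56.9 FPKM in the control library, while ENST00000584320 had 52.2 FPKM in the knockdown and 69.9 FPKM in the control library. In PSMF1, ENST00000335877 led in the knockdown with 17.6 FPKM (20.8 FPKM in the control library), and ENST00000246015 had 16.8 FPKM in the knockdown and 23.6 FPKM in the control library. In PSME2, ENST00000560410 held 46.5% of the gene in the knockdown and 38.2% in the control library, and ENST00000615264 held 27.6% in the knockdown and 35.7% in the control library.

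**Figure D3:**
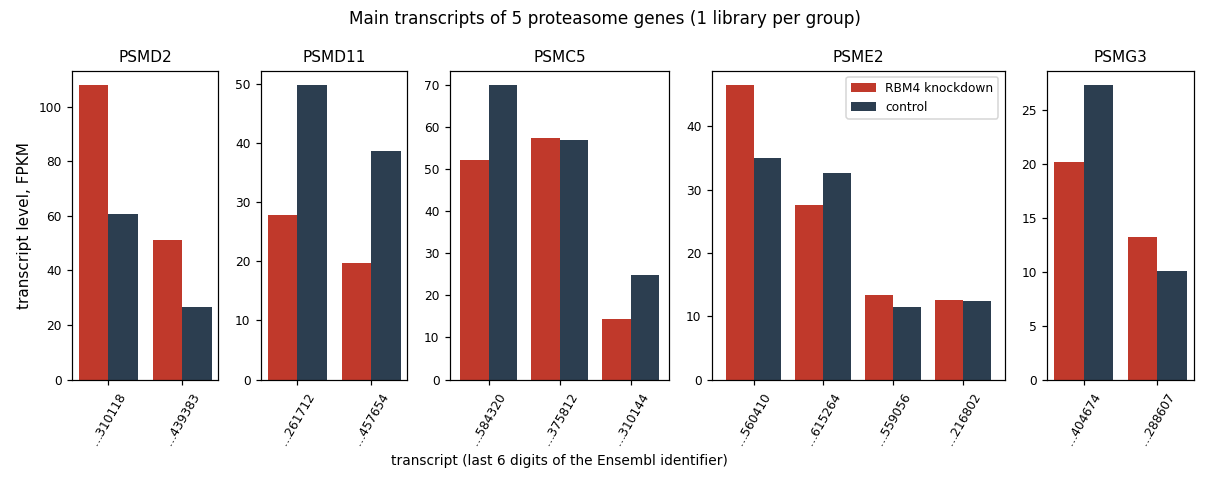
FPKM of the main transcripts of 5 proteasome genes in the knockdown (red) and control (dark) library, each bar 1 library and each panel with its own axis from 0. Both PSMD2 transcripts are higher and both PSMD11 transcripts lower in the knockdown library, whereas transcripts of PSMC5, PSME2 and PSMG3 differ in size or sign within the gene.

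NFE2L1, the factor that raises proteasome genes, had a difference above 0. It had 71.6 FPKM in the knockdown and 62.9 FPKM in the control library (0.18). Its activity is set by processing of the protein, which RNA levels do not show. Of the genes that carry out this processing, DDI2, the protease that cleaves it, had 5.84 FPKM in the knockdown and 5.25 FPKM in the control library (0.13). NGLY1, which strips its sugars, had 13.6 FPKM in the knockdown and 15.3 FPKM in the control library (-0.15). VCP, the ATPase that extracts it from the membrane, had 124 FPKM in the knockdown and 146 FPKM in the control library (-0.24).

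The element that NFE2L1 binds is of the antioxidant response type, searched here as TGAC followed by GCA after 3 bases of any kind, on both strands of the same promoter windows. It occurred in 8 of the 38 members with a window (21.1%), against 3.94% of all 27305 genes, a set that includes genes not measured here. The 6 matches that lie before the start are shown with 15 bases on each side, the element in capitals and the gene's strand read 5′ to 3′ (GRCh38.p14), because shared elements of this kind are what is known to tie these genes together.
PSMA4, chr15:78540645-78540684, plus strand: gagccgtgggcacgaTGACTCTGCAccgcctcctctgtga
PSMB3, chr17:38752622-38752661, plus strand: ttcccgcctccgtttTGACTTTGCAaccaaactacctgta
PSMC5, chr17:63827648-63827687, plus strand: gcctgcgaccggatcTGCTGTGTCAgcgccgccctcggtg
PSMD12, chr17:67366718-67366757, minus strand: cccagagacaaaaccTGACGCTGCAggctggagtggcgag
PSMD9, chr12:121888625-121888664, plus strand: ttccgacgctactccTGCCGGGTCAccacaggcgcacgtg
PSME4, chr2:53971004-53971043, minus strand: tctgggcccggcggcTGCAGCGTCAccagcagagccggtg
PSMA4, PSMB3 and PSMD12 carry the element in forward orientation and the other 3 in reverse, and PSMD1 and PSMD3 hold a match after the start. The 8 genes had a median difference of -0.28, from -0.42 in PSMB3 to 0.24 in PSME4, and the 30 members with a window but no match had a median of -0.32. A match of letters is a description, not evidence of binding.

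CCAAT, the box bound by NF-Y, was found in 18 of the 38 members (47.4%) and in 39.7% of all genes with a window. Members with it had a median difference of -0.33 and the 20 without it one of -0.26. TTTC repeated after 2 bases of any kind, a pattern of interferon-responsive promoters, was found in 6 members (15.8%) and in 4.38% of all genes. Those 6 were PSMA4, PSMB4, PSMB10, PSME1, PSME2 and PSMG4. Their differences ran from -0.45 in PSMG4 to 0.15 in PSME1, with a median of -0.087. The 32 members without the pattern had a median of -0.32. The patterns were searched as spelled on both strands, and GGGCGG and CCAAT can overlap other matches. The shares of all genes are again over a set that includes genes not measured here.

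The list of 21 partner genes outside the PSM symbols had a median difference of -0.24 and none past 1.5-fold. Of these, 15 (71.4%) lay below 0, against 53.4% of all genes and 62.0% of those at 20 FPKM or more. The base subunit and ubiquitin receptor ADRM1 had 53.8 FPKM in the knockdown and 69.9 FPKM in the control library (-0.37). The small lid subunit SEM1, listed under its older symbol, had 79.3 FPKM in the knockdown and 96.4 FPKM in the control library (-0.28). POMP, the maturation factor of the core, had 64.8 FPKM in the knockdown and 77.9 FPKM in the control library (-0.26). ADRM1, SEM1 and POMP lay inside the ranges of the base (-0.59 to 0.94), lid (-0.86 to 0.092) and core (-0.51 to -0.023). The base range is wide because it includes PSMD2.

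PAAF1, an ATPase-binding factor, was highest of the list, at 15.1 FPKM in the knockdown and 10.2 FPKM in the control library (0.52). It lay above the range of the base ATPases (-0.59 to -0.30). The shuttle factors RAD23B (-0.27), UBQLN1 (-0.18), UBQLN2 (-0.27) and UBQLN4 (-0.26), which carry ubiquitin-tagged proteins to the particle, lay below 0. Of the enzymes bound to the proteasome, TXNL1 (-0.33), UCHL5 (-0.24) and USP14 (-0.17) lay below 0 and UBE3C (0.12) above. The polyubiquitin gene UBB had 637 FPKM in the knockdown and 780.2 FPKM in the control library (-0.29). The ubiquitin-activating enzymes UBA1 (0.12) and UBA6 (0.41) lay above 0.

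**Figure D4:**
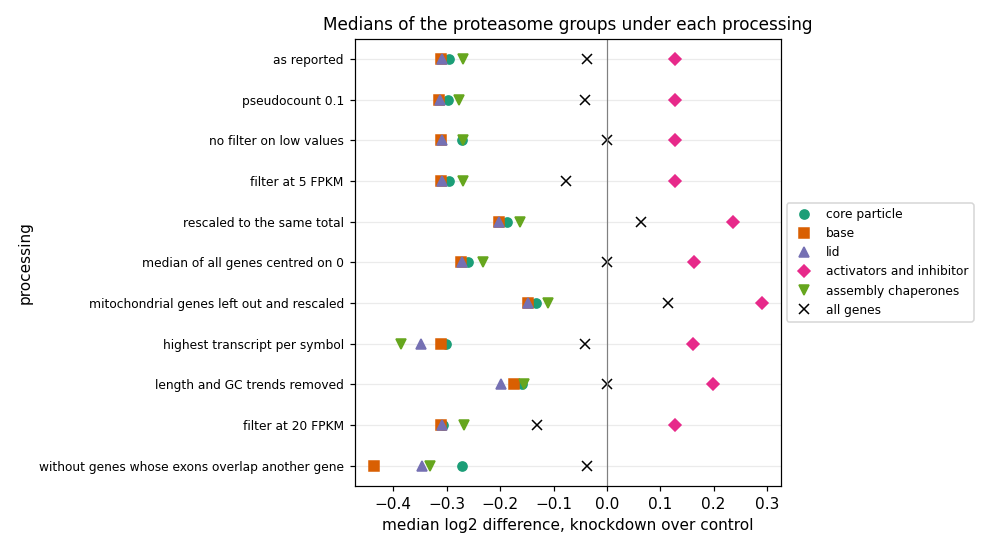
Median log2 difference of each proteasome group and of all genes (crosses) under each way of processing the deposited values. The setting without genes whose exons overlap another gene left out proteasome genes only. Core, base, lid and chaperone medians stay below 0 and below the median of all genes throughout, between -0.44 and -0.11, while the activators and inhibitor lie between 0.13 and 0.29 wherever a value could be computed.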

How the data were processed

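The authors deposited FPKM per transcript for A549 cells, 1 library per group, from total RNA (Trizol, Illumina TruSeq kit, per the labels' protocols). The submitters' processing notes name TopHat, Cufflinks, CASAVA 1.8.2 and build hg38. Their roles, the annotation, the strand setting and read filters are not given in the sources used here, and FPKM carry no depth. The H1299 table gave gene symbols only, and its 3 value columns, which match no label, were not used. Transcripts were summed per symbol, genes at 1 FPKM or more in either library (12230) were kept, and log2 differences used a pseudocount of 1, which understates low genes. Calls were differences of at least 1.5-fold or 2-fold. No difference was tested, for want of replicates. The members, lists and motifs were chosen with earlier results of these data known. Genes named with full values were the extremes of level and difference in each group, the catalytic subunits, the activators and inhibitor, and PSMC3IP; outside the members, RBM4, cell markers and the partner list, some genes of which are not reported here. PSMA3, PSMC4, PSMC6 and a few others were added after their values were seen. Positions and exon overlaps came from GENCODE 29 on the same build, and promoter windows from RefSeq (GRCh38.p14), which had 38 of the 44 measured genes. The code for counts and medians was tested on simulated data with known answers, which checks the code only. Work was done in Python 3.11.15 with pandas 2.3.3 and numpy 2.4.6. A total of 10 alternatives were tried, 3 of them added after seeing the data.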

Additional observations from a re-analysis of the deposited data

How the results depend on the processing

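No paired analysis was possible because each group has 1 library, so none could be left out either, and alternatives that need H1299 were not run. Across the 10 alternatives no median of a proteasome group changed sign. Rescaling to the same total gave medians of -0.19 for the proteasome, -0.19 core, -0.20 base, -0.20 lid, 0.24 activators and inhibitor, -0.16 chaperones and -0.13 partners, with 1 gene lower by 1.5-fold against 3 as reported. Leaving out mitochondrial genes gave -0.13, -0.13, -0.15, -0.15, 0.29, -0.11 and -0.077 in the same order, again with 1 gene lower. With the length and GC trends of all genes removed, an alternative added after seeing the data, the values were -0.17 proteasome, -0.16 core, -0.17 base, -0.20 lid, -0.16 chaperones and -0.10 partners, with 1 gene lower. With the highest transcript per symbol, 1 gene was lower and the chaperone median was -0.39. Without genes whose exons overlap another gene, also added later, 23 genes remained and the base median was -0.44. Only proteasome genes were left out there, and the set of all genes (12209) kept its other overlapping genes. In each alternative that left 1 gene lower, that gene was PSMD11. The causes were not tested, and the unknown depth and missing replicates limit every value.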
